A study of Mus musculus with 31 samples.

Results

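DNA replication genes were followed through neocortical development, in 41 genes of the 23258 that the deposited tables list for mouse cortex. The members are the named genes of origin licensing, the replicative helicase and its activation, the replicative polymerases and primase, the sliding clamp and its loader, single-strand DNA binding, Okazaki fragment maturation, nucleotide supply and replication-coupled chromatin assembly. Each member was taken by its symbol, from a list chosen with earlier results of these data known. All 41 were present in both tables, above 0 in every library, and above the expression filter of the fits over all groups. Poly(A) RNA was sequenced from neocortices dissected at embryonic day 13 (E13) or at birth (P0), from wild-type mice (WT) or from mice whose label is a conditional knockout (cKO) of HuR. HuR is an RNA-binding protein, and its gene is Elavl1. RNA came from total lysate, from a monosome pool (gradient fractions 4 to 7, with ribosomal subunits and single ribosomes) and from a polysome pool (fractions 9 to 12, with several ribosomes per mRNA), all prepared in cycloheximide, which holds ribosomes on the mRNA. In WT there were 2 libraries per pool at E13 and 3 at P0. Of the libraries labelled cKO, E13 had 3 from monosomes, 3 from polysomes and 2 from total RNA, and P0 had 2, 3 and 3. The labels do not name the Cre driver, the part of Elavl1 removed, or whether cortices were pooled.

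DNA replication starts from origins that the origin recognition complex (Orc1 to Orc6) marks in G1, where Cdc6 and Cdt1 load the MCM2-7 helicase. In S phase Cdc45 and the GINS complex activate that helicase, polymerase alpha and primase start each new strand, and polymerases delta and epsilon extend it on the PCNA clamp. Cortical progenitors divide in the germinal zones next to the ventricle, and the neurons they produce leave the cell cycle.

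Values are FPKM (fragments scaled by transcript length and by library size), so levels of different genes are compared per length. Each genotype has its own table with its own scaling, so no test compares levels between the genotypes. Sums of FPKM ran from 391659 to 1130655 per library and 13340 to 16625 genes were above 0. The depth in fragments is not given, and no counting interval can be printed. Elavl1 was present in every library labelled cKO. In E13 total RNA it stood at 42.5 to 55.4 FPKM there and 28.5 to 39.5 FPKM in WT, in monosome RNA at 80.0 to 83.9 and 13.5 to 42.4, and in polysome RNA at 28.3 to 30.0 and 42.4 to 60.6, so cKO is used as the label of those libraries. Differences are in log2(FPKM + 1) with the standard error (SE) of limma's moderated test, two-sided, and a gene was called at a Benjamini-Hochberg adjusted p under 0.05 over all genes tested. The labels do not say that libraries came from separate animals, so p-values here cover only the spread among libraries, which may be technical.

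Each of the 41 members was lower at P0 than at E13 in WT total RNA. The median member stood at 40.8 FPKM at E13 (3.26 for Orc1 to 443 for Pcna) and at 6.14 FPKM at P0 (0.170 for Orc1 to 83.2 for Pcna). The ratio of E13 to P0 mean levels had a median of 6.51 and ran from 1.96 to 22.8. All 41 of 41 were called lower, against 27.9% of the 12123 genes tested, with a median difference of -2.38 beside -0.12 over all genes. The E13 libraries did not overlap the P0 libraries for any member, but the share of all genes without overlap was not counted. At E13, 32 members had a mean above 20 FPKM, while at P0 these were 6, namely Orc6, Mcm7, Pcna, Rfc2, Rfc3 and Rpa3. In bulk tissue, fewer cells that express a gene and less RNA per cell cannot be told apart.

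**Figure D1:**
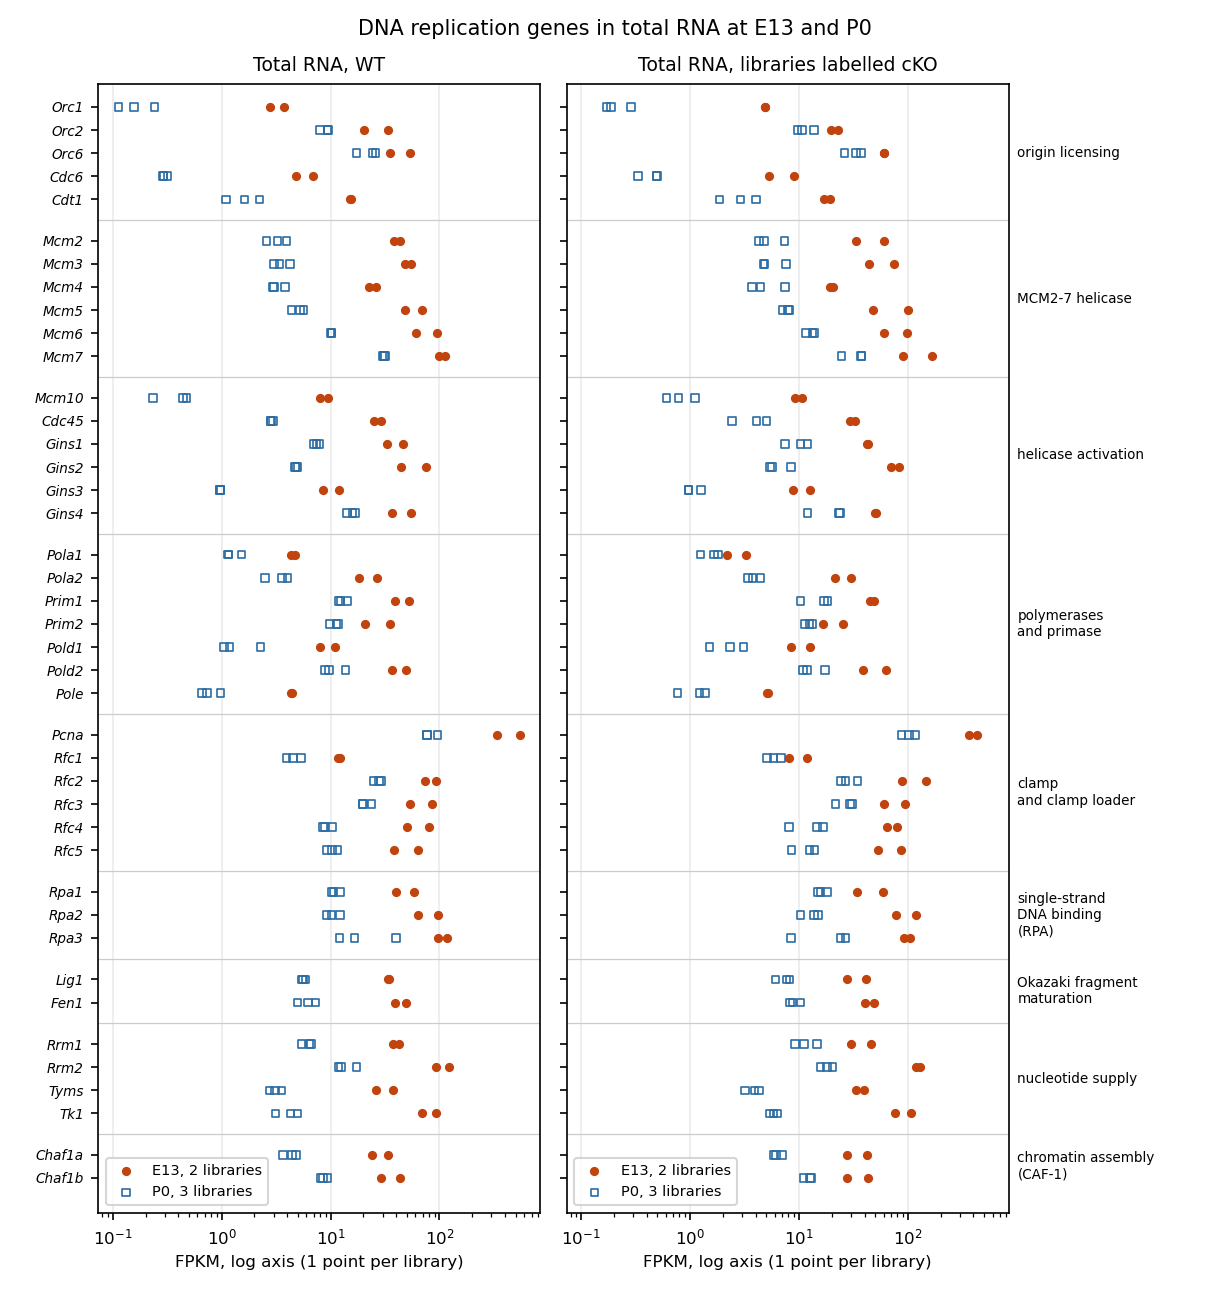
FPKM of the 41 replication genes in total RNA on a log axis, 1 point per library, grouped by role, for WT (left) and the libraries labelled cKO (right), with E13 as filled circles and P0 as open squares. In both panels the E13 points lie to the right of the P0 points for every member, and Orc1, Cdc6 and Mcm10 are among the lowest at P0.

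Among the origin licensing genes, mean levels at E13 were 19.5 times those at P0 for Cdc6, 19.1 times for Orc1, 9.15 times for Cdt1 and 1.96 times for Orc6. Cdc6, the ATPase that recruits the helicase, measured 4.85 and 6.87 FPKM at E13 and 0.317, 0.290 and 0.294 FPKM at P0. Cdt1, which brings the helicase to origins, measured 15.3 and 14.9 FPKM at E13 and 1.10, 1.63 and 2.23 FPKM at P0. The drops were 2.38 ± 0.21 and 2.63 ± 0.23, with adjusted p of 2.16e-07 and 2.91e-07. Orc1, the cell cycle-regulated ATPase subunit of the origin recognition complex, went from 2.79 and 3.74 FPKM to 0.156, 0.242 and 0.113 FPKM. Its difference of -1.86 ± 0.16 is on a scale that understates changes of genes this low. Orc6, another subunit of that complex, had the smallest difference of all members on this scale. It measured 34.8 and 53.2 FPKM at E13 and 17.4, 25.7 and 24.2 FPKM at P0, a difference of -0.93 ± 0.37 with an adjusted p of 0.0481. That call did not hold in 8 of the alternatives, with the replicate number as a block among them (adjusted p = 0.0519). The other subunits are no members: Orc3, Orc4 and Orc5, named after their values were seen, were not called, at 0.30 ± 0.21, 0.09 ± 0.20 and -0.43 ± 0.20.

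The MCM2-7 helicase unwinds the parental strands as a ring of 6 different subunits. All 6 fell, by 3.54 for Mcm3, 3.31 for Mcm2, 3.29 for Mcm5, 2.79 for Mcm6, 2.57 for Mcm4 and 1.74 for Mcm7. Mcm7 stood apart within the ring. It measured 99.1 and 111 FPKM at E13 and 30.8, 31.6 and 29.9 FPKM at P0, whereas Mcm3 went from 48.7 and 55.0 FPKM to 3.39, 3.04 and 4.23 FPKM. Of the summed FPKM of the 6 subunits, Mcm7 made up 27.9% and 31.1% in the WT E13 total RNA libraries and 52.5% to 56.8% in those of P0. In WT monosome RNA its share at P0 was 72.2% to 78.7%. Total RNA of the libraries labelled cKO went from 30.6% to 32.1% at E13 to 35.7% to 53.8% at P0. Exons of Mcm7 (chr5:138164583-138172422, GRCm38) overlap exons of Cops6 and Ap4m1 on the opposite strand, the library kit does not keep the strand, and how fragments in the overlap were counted is not given. Cops6 itself measured 154 FPKM on average in WT E13 total RNA and 95.2 at P0, and Ap4m1 12.7 and 6.17. In WT monosome RNA Cops6 averaged 99.8 FPKM at E13 and 31.4 at P0, and Ap4m1 11.7 and 6.57. In WT P0 polysome RNA, where the share of Mcm7 was 40.7% to 41.9%, they averaged 146 and 8.02 FPKM. The part of these neighbours in the Mcm7 values was not tested. Exons of Orc1, Orc2, Orc6, Cdc45, Gins2, Pole, Rfc2, Rfc4, Rfc5, Lig1, Fen1, Tk1 and Chaf1a likewise overlap an exon on the opposite strand.

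**Figure D2:**
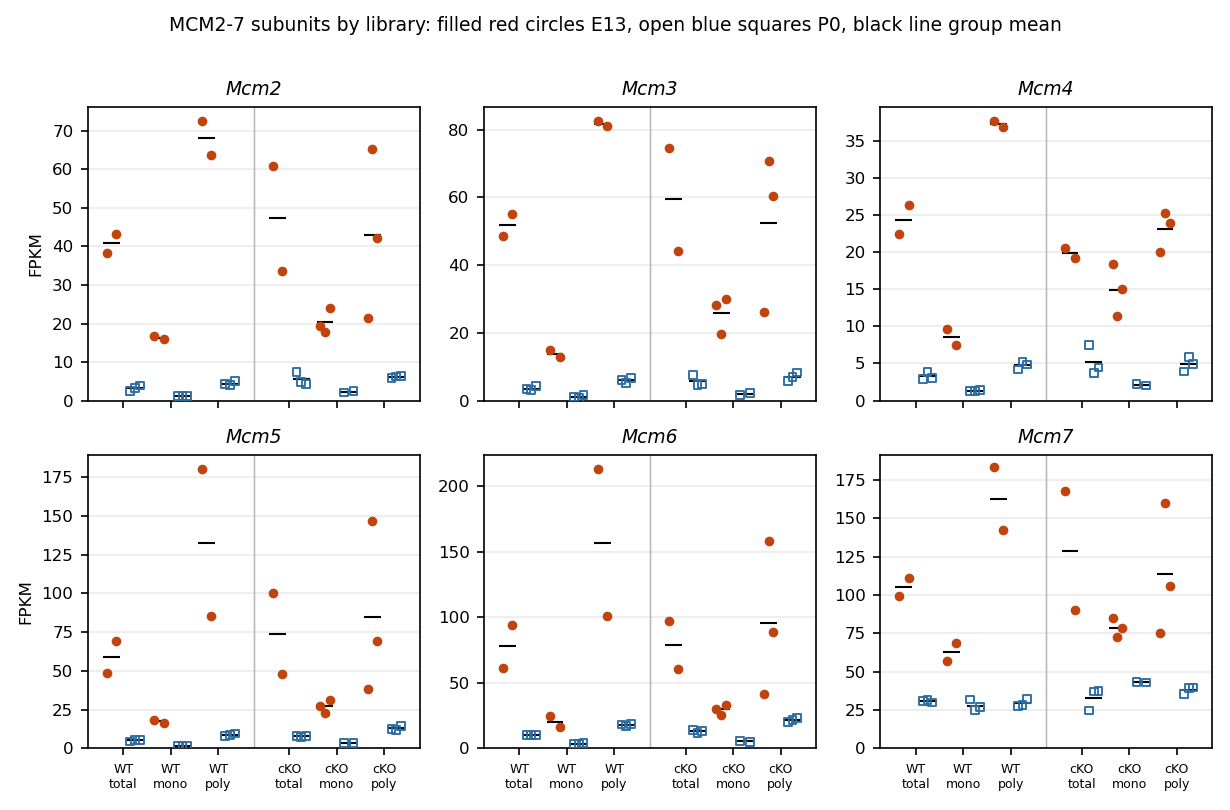
FPKM of the 6 subunits of the MCM2-7 helicase in every library on linear axes that start at 0, by genotype and RNA pool, with E13 as filled red circles, P0 as open blue squares and the group mean as a black line. The WT E13 polysome points lie above the WT E13 monosome points for all 6 subunits, and Mcm7 keeps the highest P0 levels of the ring.

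Since the members fell together, the bases around their start sites were searched for the E2F motif, the binding site of the E2F factors that drive S phase genes. It was written as TTTCCCGC, TTTGGCGC, TTTCGCGC or TTTGCCGC on either strand. RefSeq windows of 300 bases (250 before to 50 after the start, GRCm38.p6) were found for 34 of 41 members. A match stood in 12 of these 34 (35.3%), against 2.60% of the 27025 genes with such a window. In Mcm3, Cdt1, Lig1 and Pold1 the matches lay only after the start. The CCAAT box, letters CCAAT on either strand, stood in 23 of 34 (67.6%), against 41.1% of all genes. Among 20 of the mitosis genes with a window, 15 (75%) held a CCAAT box and 1 (5%) an E2F match. The 180 bases before the start are printed, with E2F matches in capitals, for the members with a match there and no annotated exon. They show overlapping matches on both strands in Mcm5 and Mcm6, a further match in Mcm6, and a match in Pola1, which fell less than most.
Mcm5: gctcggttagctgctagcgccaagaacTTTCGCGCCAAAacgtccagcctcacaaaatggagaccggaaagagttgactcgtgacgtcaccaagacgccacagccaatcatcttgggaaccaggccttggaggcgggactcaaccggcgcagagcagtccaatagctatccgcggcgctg
Mcm6: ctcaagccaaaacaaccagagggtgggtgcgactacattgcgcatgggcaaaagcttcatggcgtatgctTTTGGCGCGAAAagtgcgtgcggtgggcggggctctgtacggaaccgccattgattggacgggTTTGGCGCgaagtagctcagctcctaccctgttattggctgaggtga
Pola1: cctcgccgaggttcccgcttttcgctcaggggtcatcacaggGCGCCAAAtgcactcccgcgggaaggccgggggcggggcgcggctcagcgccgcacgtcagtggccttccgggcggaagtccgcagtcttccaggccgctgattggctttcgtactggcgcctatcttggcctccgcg
They lie at chr8:75109329-75109508 (plus strand), chr1:128359706-128359885 (minus strand) and chrX:93632156-93632335 (minus strand), before the first base of the RefSeq transcript, and overlap no exon of GENCODE M21. The matches begin 153 and 149 bases before the start in Mcm5, where the pair overlaps, and 110, 106 and 47 bases before it in Mcm6. Pola1, the catalytic subunit of polymerase alpha, holds its match 138 bases before the start. The median difference in WT total RNA was -2.39 for the 12 members with a match and -2.45 for the 22 without. A match in these letters is a description of the sequence and not of binding.

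Helicase activation factors fell by 1.47 (Gins4) to 3.33 (Gins2). Gins2, a subunit of the GINS complex, measured 44.3 and 74.6 FPKM at E13 and 4.81, 4.95 and 4.73 FPKM at P0, with no overlap. Gins4, another subunit of the same complex, measured 37.0 and 54.6 FPKM and then 16.7, 14.2 and 15.9 FPKM. Of the summed FPKM of the complex, Gins2 made up 36.1% and 39.9% in the E13 libraries and 16.1% to 18.0% at P0, and Gins4 at 29.2% and 30.2% and then 51.5% to 56.8%. Cdc45, which joins GINS on the active helicase, went from 25.1 and 28.8 FPKM to 2.80, 2.83 and 2.95 FPKM. Mcm10, which helps to switch the helicase on, went from 8.04 and 9.51 FPKM to 0.234, 0.477 and 0.444 FPKM and was among the 5 members with a mean under 1 FPKM at P0, beside Orc1, Cdc6, Gins3 and Pole.

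The polymerase and primase genes had smaller differences, with a median of -1.75 over the 7. Pola2, the accessory subunit of polymerase alpha, fell the most of them (2.42 ± 0.35), and Prim2, the large primase subunit, the least (1.23 ± 0.31, adjusted p = 0.00365). Prim1, the catalytic primase subunit and the highest of the group, measured 39.4 and 52.4 FPKM at E13 and 14.3, 11.8 and 12.4 FPKM at P0. Prim2 measured 20.6 and 35.4 FPKM and 9.81, 11.4 and 11.7 FPKM, and lost its call without WT E13 total 1, the higher of its 2 libraries at that age (adjusted p = 0.0889). Pola1 was low throughout, at 4.67 and 4.32 FPKM and 1.53, 1.15 and 1.14 FPKM.

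Pcna, the sliding clamp, was the most abundant member in total RNA at both ages. It measured 336 and 550.4 FPKM at E13 and 76.9, 76.7 and 96.2 FPKM at P0, a drop of 2.36 ± 0.40 (adjusted p = 0.000173). Fragments of its processed pseudogenes, Pcna-ps1 and Pcna-ps2, could be counted with it. The 5 subunits of the clamp loader fell by 1.21 (Rfc1, the large subunit) to 2.66 (Rfc4, a small subunit). Rfc4 went from 49.9 and 80.5 FPKM to 8.91, 8.50 and 10.3 FPKM. Rfc3 lost its call without WT E13 total 1 (adjusted p = 0.0582).

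The 3 subunits of RPA, which coats single strands, fell by 2.05 (Rpa1), 2.35 (Rpa3) and 2.79 (Rpa2). Rpa3, the smallest subunit, was scattered at P0, where P0 total 0 measured 39.7 FPKM and the other libraries 16.6 and 12.1, against 97.0 and 118 FPKM at E13. Fen1, the flap nuclease of Okazaki fragments, measured 39.4 and 49.2 FPKM at E13 and 4.95, 6.23 and 7.24 FPKM at P0, and Lig1, the ligase that seals them, fell by 2.40 ± 0.18. Among the nucleotide supply genes, Tk1, the thymidine kinase of S phase, had the largest difference of all members in log2(FPKM + 1). It measured 68.6 and 93.6 FPKM at E13 and 3.13, 4.28 and 4.97 FPKM at P0, a drop of 4.00 ± 0.33. Rrm2, the regulatory subunit of ribonucleotide reductase, measured 92.2 and 123 FPKM and 11.9, 12.4 and 17.2 FPKM. Tyms, the thymidylate synthase, whose pseudogene Tyms-ps could share fragments, and Rrm1, the large reductase subunit, fell by 2.97 and 2.52. Chaf1b, a subunit of the CAF-1 histone chaperone, measured 28.8 and 43.1 FPKM and 8.09, 8.54 and 9.40 FPKM, and its partner Chaf1a fell by 2.48 ± 0.25.

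Further genes of replication outside the 41 moved the same way for the most part. For comparison, 3378 of the 12123 genes tested in WT total RNA were lower at P0 (27.9%) and 2961 higher, with a median of -0.12. Of 37 other replication factors, 28 were lower and 2 higher at P0 in WT total RNA, with a median of -1.59. The 3 with the smallest adjusted p were Uhrf1, which targets DNA methylation to new strands (-3.65 ± 0.25), Timeless, a fork protection factor (-2.28 ± 0.16), and the nuclease-helicase Dna2 (-2.19 ± 0.19). The higher pair was Pold4, a small subunit of polymerase delta (1.32 ± 0.30), and Rrm2b, the reductase subunit used outside S phase (0.58 ± 0.22). All 24 mitosis genes were lower, with a median of -3.37, led by Kif20a (-3.24 ± 0.19), Nusap1 (-3.34 ± 0.20), Tpx2 (-3.34 ± 0.21) and Plk1 (-3.83 ± 0.24). In the E2F and RB family 15 of 17 were lower, with a median of -1.66, led by Rbl1 (-2.46 ± 0.19) and Mybl2 (-3.43 ± 0.29), while Rb1 and Rbl2 were not called. Of 10 non-replicative DNA polymerase genes tested, 3 were lower and 2 higher, with a median of 0.01. The libraries labelled cKO gave 24 of 37, 22 of 23, 14 of 17 and 4 of 11 lower in these lists, against 23.2% of all genes.

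Cell type markers moved at the same time. For scale, 2961 of the 12123 genes tested in WT total RNA were called higher at P0 and 3378 lower. In WT total RNA the summed FPKM of 6 intermediate progenitor markers lay between 250.7 and 304 at E13 and between 19.3 and 34.4 at P0, and 5 of 6 were called lower. The 10 radial glia markers summed to between 1050 and 1185 at E13 and between 887 and 1393 at P0, with 8 called lower and 2 higher. The 10 cortical neuron markers summed to between 537 and 898 at E13 and between 3135 and 3588 at P0, with 8 called higher. The 7 erythroid markers summed to between 7500 and 7896 and then between 119 and 329, with 6 called lower. Interneuron, astrocyte, oligodendrocyte lineage and microglia markers were called higher in 6 of 6, 3 of 4, 4 of 4 and 1 of 6, and lower in 0, 1, 0 and 0. Endothelium and pericyte markers were higher in 1 and lower in 2 of 5, and meninges and fibroblast markers lower in 2 of 5. The part of these shifts in the fall of the replication genes was not tested.

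The fall was also present in both gradient pools of WT. In polysome RNA 40 of 41 members were called lower (33.4% of all genes), with a median of -2.51, and in monosome RNA 38 of 41 (35.7% of all genes), with a median of -2.05. The medians of all genes were -0.19 and -0.27. After rescaling each library to its table by the median ratio, these became -0.05 and -0.07, the member medians became -2.34 and -1.92, and 40 and 37 members were called. The split of all genes in monosome RNA then moved from 2478 higher and 4329 lower to 3071 and 3378.

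**Figure D3:**
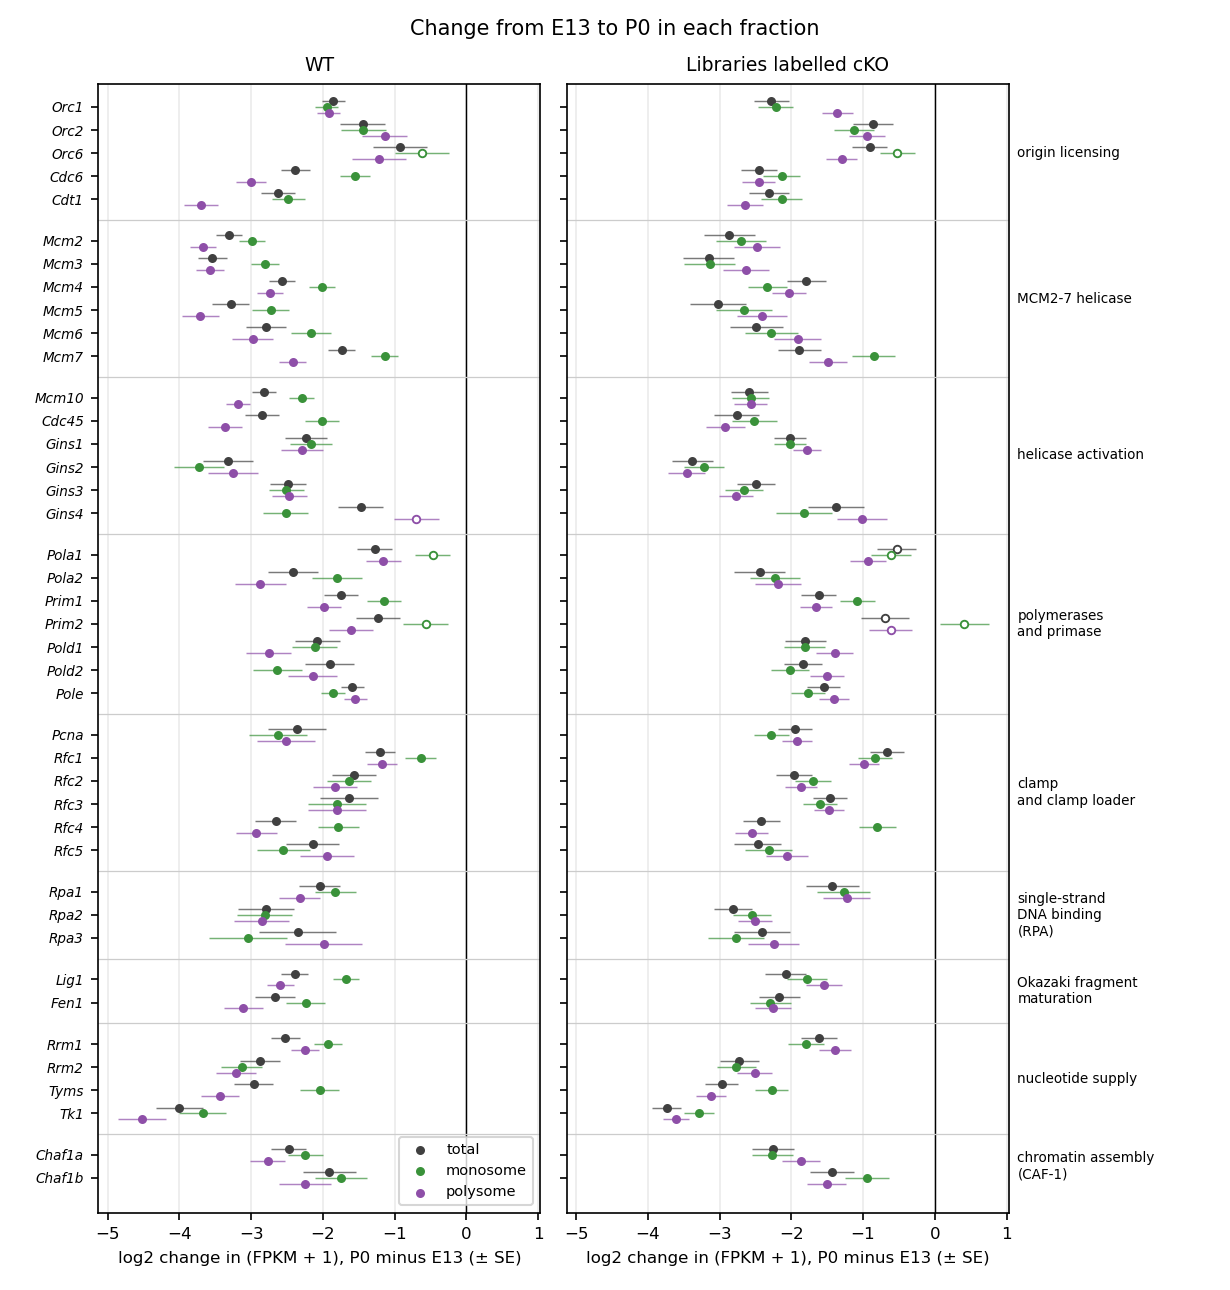
Difference between P0 and E13 in log2(FPKM + 1) for the 41 replication genes in total, monosome and polysome RNA, with bars of 1 SE, for WT (left) and the libraries labelled cKO (right). Filled points were called at an adjusted p under 0.05 and open points were not. Nearly all points lie left of 0, and the open ones belong to Orc6, Gins4, Pola1 and Prim2.

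The exceptions were few. Gins4 was not called in WT polysome RNA, where it measured 30.0 and 35.5 FPKM at E13 and 18.7, 20.7 and 19.9 FPKM at P0 (-0.70 ± 0.31, adjusted p = 0.0679). In WT monosome RNA the uncalled members were Orc6, Pola1 and Prim2. Pola1 measured 1.81 and 3.39 FPKM and 1.69, 1.54 and 1.38 FPKM there (-0.47 ± 0.24), with the lower E13 library just above those of P0. Prim2 measured 19.1 and 8.78 FPKM and 6.62, 9.65 and 9.34 FPKM (-0.57 ± 0.31), and its groups overlapped. Orc6 measured 59.9 and 29.7 FPKM and 17.0, 36.6 and 31.9 FPKM (-0.62 ± 0.37), and overlapped too. Without WT E13 monosome 1, Orc6 and Prim2 stood at -1.11 and -1.09, and without WT E13 monosome 0 Pola1 stood at -0.79. These fits have 1 library left in that group. Among the called members, Rfc1 in monosome RNA lost its call without WT E13 monosome 1 (adjusted p = 0.0897). In polysome RNA, Orc6 and Rpa3 lost theirs without WT E13 polysome 0 (0.144 and 0.0696), and Orc2 without WT E13 polysome 1 (0.0668).

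The libraries labelled cKO showed the fall as well. Their total RNA had 39 of 41 members lower (23.2% of 12302 genes tested), with a median of -2.16 beside 0.04 over all genes. The counts were 38 of 41 in monosome RNA (22.4% of all genes, median -2.14) and 40 of 41 in polysome RNA (26.5%, median -1.91). The ratio of E13 to P0 mean levels in total RNA had a median of 4.87, and ran from 1.70 to 22.6. Orc1 had the largest ratio. In log2(FPKM + 1) the largest difference was that of Tk1, from 107 and 76.2 FPKM to 5.42, 5.84 and 6.27 FPKM (3.74 ± 0.21), and Pcna went from 430.1 and 364 FPKM to 87.1, 103 and 116 FPKM. Pola1 and Prim2 were the uncalled members of total RNA. Prim2 measured 7.51, 14.9 and 8.92 FPKM in E13 monosome RNA and 13.6 and 13.7 FPKM at P0 (0.41 ± 0.34, adjusted p = 0.336), so that 1 E13 library lay above both of P0. It stood at -0.69 ± 0.34 in total and -0.62 ± 0.30 in polysome RNA. Pola1 measured 2.21 and 3.26 FPKM and 1.80, 1.25 and 1.66 FPKM in total RNA (-0.53 ± 0.28) and was called in polysome RNA only (-0.93 ± 0.25). Without cKO E13 polysome c0, Prim2 was called lower in polysome RNA (-1.01, adjusted p = 0.00411). Orc6 was uncalled in monosome RNA, at 83.6, 55.8 and 72.5 FPKM and 51.8 and 44.9 FPKM (-0.52 ± 0.25). Without cKO E13 monosome c1, Orc6 and Pola1 were called lower there (0.0380 and 0.0234).

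Some of these calls rested on 1 library. In total RNA, Rpa1 lost its call without cKO E13 total c0 (adjusted p = 0.0852), Orc2 without c1 (0.0975), and Rfc1 without E13 c1, P0 c1 or P0 c2 (0.265, 0.0780 and 0.0570). In monosome RNA, Mcm7 lost its call without E13 c0 or c2 or P0 c0 or c1 (0.0543 to 0.113), and Chaf1b without E13 c1 or P0 c0 or c1 (0.0731 to 0.0931). Rfc1 lost its call there without P0 c0 (0.0968), and Rfc4 and Rpa1 without P0 c1 (0.134 and 0.0906). In polysome RNA Gins4 lost its call without E13 c0 or c2 or P0 c0 (0.118, 0.0550 and 0.0652). Tests of the difference itself, on total RNA, called none of the 41 members between the genotypes (limma, 0.0163% of 12233 genes tested). At an unadjusted p under 0.05 there were 2 members, Mcm4 (0.78 ± 0.32, cKO minus WT) and Rrm1 (0.91 ± 0.31), each with a smaller fall in the libraries labelled cKO, against 760 of all genes.

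At E13 most members stood higher in polysome than in monosome RNA. FPKM is scaled by library size, so an excess in polysome RNA is relative to the other mRNAs of that pool. It does not give the part of an mRNA that was on polysomes. In WT 31 of 41 members were called higher in polysome RNA (32.6% of all genes) and none lower, with a median difference of 1.72 beside 0.24 over all genes. The ratio of mean levels had a median of 3.42 and ran from 0.507 to 8.98. Cdc45 had the largest difference (2.92 ± 0.26), from 7.75 and 6.22 FPKM in monosome to 83.6 and 41.9 FPKM in polysome RNA. Mcm6 followed (2.82 ± 0.31) with 24.6 and 16.0 FPKM and 213 and 101 FPKM, then Fen1 (2.79 ± 0.30) with 16.7 and 11.1 FPKM and 138 and 73.0 FPKM. The monosome and polysome libraries of each of these did not overlap. All 6 subunits of the helicase, all 4 nucleotide supply genes, both Okazaki genes and both CAF-1 genes were called higher. Pcna, with 252 and 70.2 FPKM in monosome and 1067 and 644 FPKM in polysome RNA, had a difference of 2.63 ± 0.44.

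The same complexes also held members without this excess. Only 2 of 5 origin licensing genes were called, Cdc6 (1.68 ± 0.22) and Cdt1 (1.49 ± 0.26), while Orc1 (0.07 ± 0.18), Orc2 (0.06 ± 0.34) and Orc6 (0.32 ± 0.41) were not. Orc1 measured 3.35 and 3.31 FPKM in monosome and 3.57 and 3.51 FPKM in polysome RNA. Within GINS, Gins1 was called (1.86 ± 0.32), and Gins2 (-0.59 ± 0.38), Gins3 (0.64 ± 0.27) and Gins4 (-0.78 ± 0.34) were not. Gins2 measured 119 and 46.0 FPKM in monosome and 55.8 and 42.9 FPKM in polysome RNA, and Gins4 95.7 and 33.6 FPKM and 30.0 and 35.5 FPKM. Rpa1 and Rpa2 were called at 2.24 ± 0.31 and 2.24 ± 0.42, but their partner Rpa3, with 168 and 79.8 FPKM and 103 and 64.9 FPKM, was not (-0.49 ± 0.59). Pola2 and Pold2, accessory subunits, were called (2.69 ± 0.38 and 1.46 ± 0.37), and the catalytic subunits Pola1 (0.41 ± 0.27) and Pole (-0.34 ± 0.18) were not, although catalytic Pold1 was (1.43 ± 0.35). Rfc5 was the uncalled member of the clamp loader (0.27 ± 0.41).

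WT E13 monosome 1 lay below monosome 0 for 35 of the 41 members, with summed levels of 803 and 1615 FPKM. WT E13 polysome 1 lay below polysome 0 for 33 (2829 and 4506 FPKM). Each of these groups has 2 libraries, so a fit without 1 of them leaves 1, which is assumed to vary like the other groups. Without monosome 1, Pold2, Rfc2 and Rfc4 lost their calls, and Gins2 and Gins4 stood at -1.26 and -1.52. Rfc2 and Rfc4 also lost their calls without polysome 0, where Pola1 stood at 0.84. Median ratio rescaling took the all-gene median from 0.24 to 0.04 and the split of all genes from 3951 higher and 2515 lower to 3039 and 3043. The members then had a median of 1.46 with 30 called higher and 2, Gins4 and Pole, called lower. Coding length went only weakly with the difference: across the 41 members Pearson's r was 0.16 and Spearman's rho 0.10, and across 10711 genes of the fit they were 0.29 and 0.25. These points share libraries and are given as a description.

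**Figure D4:**
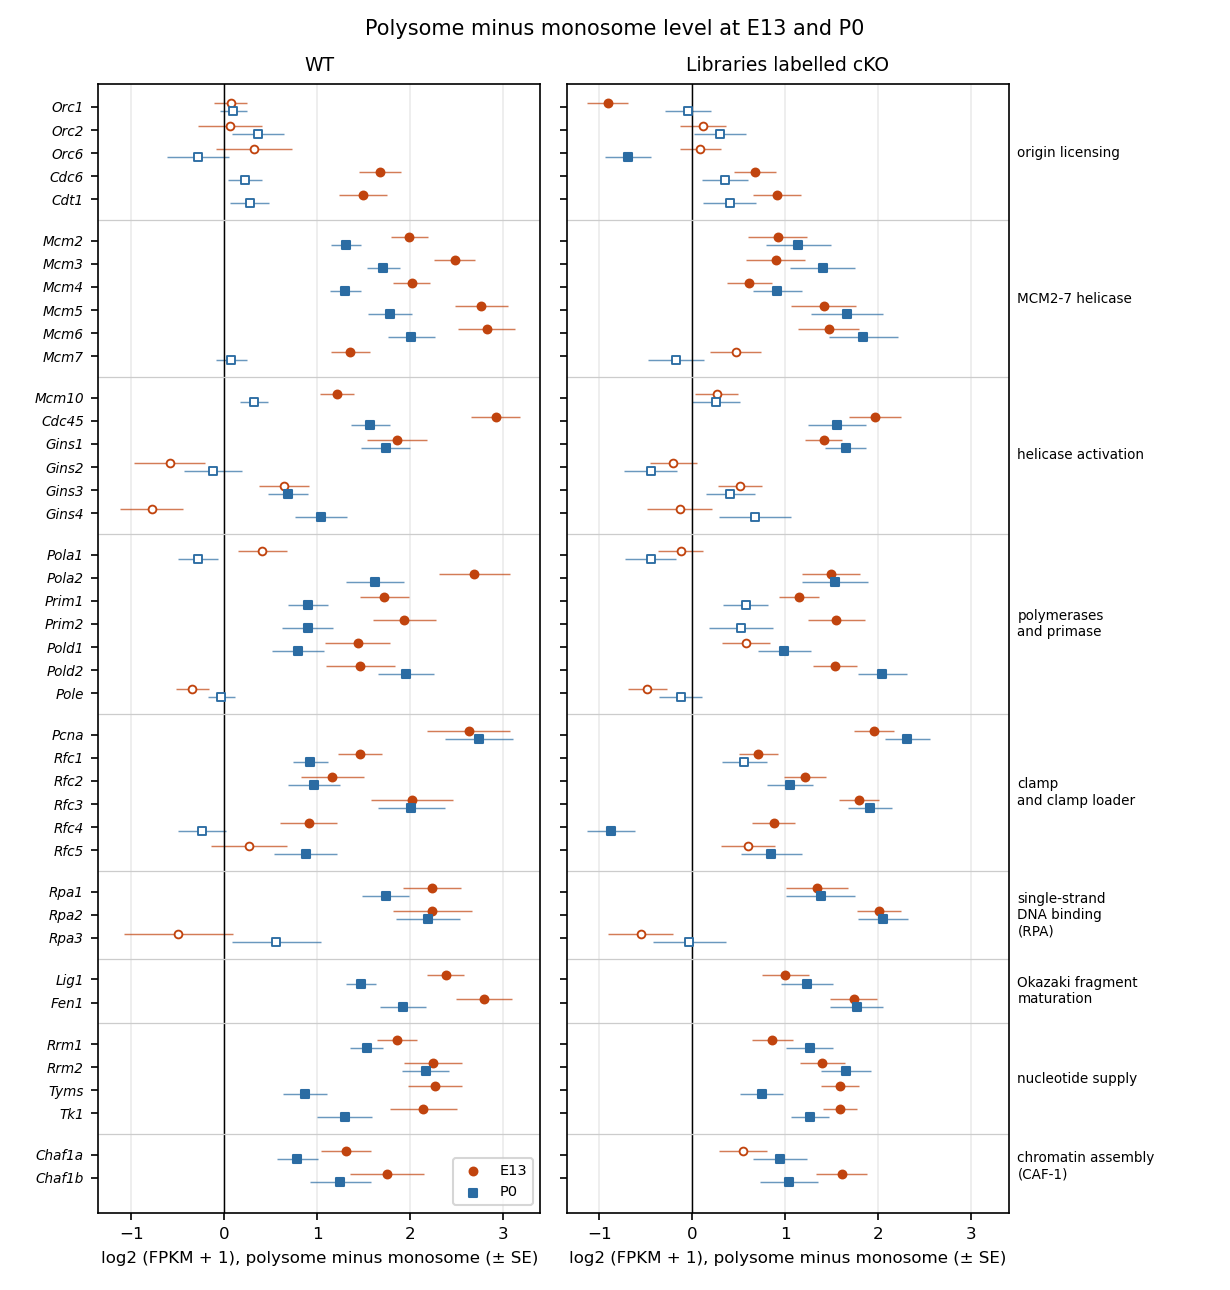
Difference between polysome and monosome RNA in log2(FPKM + 1) for the 41 replication genes at E13 (red circles) and P0 (blue squares), with bars of 1 SE, for WT (left) and the libraries labelled cKO (right). Filled points were called at an adjusted p under 0.05. In WT most E13 points lie right of the P0 points, and Gins4 lies furthest the other way.

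At P0 the polysome excess was still seen, on lower levels. In WT 29 of 41 members were called higher (39.5% of all genes) and none lower, with a median of 0.96 beside 0.30 over all genes. The ratio of mean levels had a median of 2.63 and ran from 0.713 to 6.88. With a pseudocount of 0.1 the median difference was 1.25 at P0 and 1.81 at E13. Pcna had the largest difference (2.74 ± 0.36), with 20.0, 17.0 and 26.3 FPKM in monosome and 136, 136 and 163 FPKM in polysome RNA. Rpa2, Rrm2, Mcm6 and Rfc3 followed at 2.19 ± 0.35, 2.17 ± 0.25, 2.01 ± 0.25 and 2.01 ± 0.36. None of the 5 origin licensing genes was called at this age. Of these, Orc1 and Cdc6 lay under 1 FPKM in both pools, where log2(FPKM + 1) can hardly show a difference. Cdc6 measured 0.139, 0.344 and 0.264 FPKM in monosome and 0.432, 0.496 and 0.452 FPKM in polysome RNA, without overlap, while Orc1 overlapped. With only the groups compared in the fit, 37 members passed the filter, with a median of 1.25. Mcm7 was the uncalled subunit of the helicase (0.08 ± 0.17), with 31.8, 25.0 and 26.9 FPKM in monosome and 27.7, 28.5 and 32.1 FPKM in polysome RNA, which overlapped. Rescaling left 24 called members with a median of 0.66, an all-gene median of 0.04, and a split of 3577 higher and 3244 lower in place of 4793 and 2462.

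Calls at P0 that rested on 1 library were those of Prim2 (without WT P0 monosome 0, adjusted p = 0.0556), Gins3 (without monosome 2 or polysome 1, 0.0532 and 0.0558), Pold1 and Rfc5. Pold1 lost its call without monosome 0 or 2 or polysome 0 or 2 (0.0567 to 0.133), and Rfc5 without any of the 3 monosome libraries or polysome 1 or 2 (0.0535 to 0.113). Rpa3 was called higher without monosome 0 (0.0348).

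The interaction test asked whether the polysome excess differed between ages in WT. It called 6 members with a smaller excess at P0 (1.21% of all genes) and 1 with a larger one (3.02% of all genes). The 6 were Cdc6 (-1.45 ± 0.29, adjusted p = 0.0179), Tyms (-1.39 ± 0.38, 0.0489), Cdc45 (-1.35 ± 0.34, 0.0386), Mcm7 (-1.28 ± 0.27, 0.0212), Cdt1 (-1.22 ± 0.33, 0.0496) and Mcm10 (-0.89 ± 0.24, 0.0474). Cdc6 measured 3.05 and 2.30 FPKM in monosome and 13.6 and 8.41 FPKM in polysome RNA at E13, and 0.139, 0.344 and 0.264 FPKM and 0.432, 0.496 and 0.452 FPKM at P0. Mcm7, less affected by the added 1 at its levels, went from 56.7 and 68.8 FPKM and 183 and 143 FPKM at E13 to its overlapping pools at P0. Tyms measured 14.9 and 8.11 FPKM and 75.7 and 42.5 FPKM at E13, then 1.65, 1.98 and 2.13 FPKM and 4.11, 4.15 and 4.72 FPKM. Gins4 was the member with the larger excess at P0 (1.82 ± 0.44, 0.0343), and measured 9.13, 10.0 and 8.13 FPKM in monosome and 18.7, 20.7 and 19.9 FPKM in polysome RNA at that age, the reverse of its order at E13 in the means.

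These 7 calls depended on the settings and on single libraries. With a pseudocount of 0.1 in place of 1, 2 members were called, and 3 with no filter on low values or after rescaling. Leaving out 1 library gave 0 calls without WT E13 polysome 0 and 12 without WT E13 polysome 1, 7 without WT E13 monosome 1, and 1 to 3 without any of the others (WT E13 monosome 0, and each WT P0 monosome and polysome library). With the replicate number as a block 6 remained called, and Gins4 did not (adjusted p = 0.0512). With 0.1 added, Mcm10 stood at -0.36 and Cdc6 at -1.25.

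In the libraries labelled cKO most members were also higher in polysome RNA at E13. There 27 of 41 members were called higher in polysome RNA (22.7% of all genes) and 1 lower (22.4%), with a median of 0.91 beside 0.01 over all genes. The lower member was Orc1 (-0.91 ± 0.22, adjusted p = 0.00248), with 6.16, 3.93 and 4.15 FPKM in monosome and 1.34, 2.29 and 2.56 FPKM in polysome RNA, without overlap. Rpa2, Cdc45 and Pcna were at the top with 2.01 ± 0.24, 1.96 ± 0.28 and 1.95 ± 0.21. The helicase subunits had 0.92 for Mcm2, 0.89 for Mcm3, 0.61 for Mcm4, 1.41 for Mcm5, 1.47 for Mcm6 and, uncalled, 0.46 for Mcm7. Mcm3, for example, measured 28.2, 19.5 and 29.9 FPKM in monosome and 26.1, 70.6 and 60.3 FPKM in polysome RNA, where WT had 14.9 and 12.9 FPKM and 82.5 and 80.9 FPKM. The polysome libraries were spread: the median member stood at 38.3 FPKM in column c0, 65.3 in c1 and 56.5 in c2. Their summed erythroid markers ran from 12840 to 34582 FPKM, against 5322 to 9072 in the WT E13 polysome libraries, and the part of this in the values was not tested. Mcm4 lost its call without any 1 of the monosome libraries c1 and c2 or the polysome libraries c1 and c2 (adjusted p = 0.0830 to 0.176). Mcm2 did without monosome c0 or c1 or polysome c1 or c2 (0.0621 to 0.162), Mcm3 without monosome c1 or polysome c1 or c2 (0.110 to 0.150) and Cdc6 without polysome c1 (0.121). Besides Orc1, Pole was called lower without monosome c0 or polysome c2, and Rpa3 without polysome c0, where Mcm7 was called higher (0.0319).

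The difference between the genotypes at E13, tested in 1 fit of both tables, called none of the 41 members (limma, 0.00817% of 12233 genes tested). At an unadjusted p under 0.05 there were 16 members, all with a lower polysome minus monosome difference in the libraries labelled cKO, against 1366 of all genes. They included all 6 helicase subunits, Cdc6, Cdc45, Mcm10, Orc1, Pola2, Lig1, Fen1, Rrm1, Rrm2 and Rfc1. The largest was Mcm3 (-1.58 ± 0.43, adjusted p = 0.249), then Mcm4 (-1.41 ± 0.32, 0.18). In sign, 35 of 41 members were below 0, with a median of -0.67 beside -0.18 over all genes, and -0.41 after rescaling. At P0 the count below 0 was also 35 of 41, with a member median of -0.17 beside -0.29 over all genes. The share of all genes below 0 was not counted. Without cKO E13 polysome c1, 9 members were called, all lower in the libraries labelled cKO (Cdc6, Fen1, Lig1, Mcm2, Mcm3, Mcm4, Mcm5, Mcm6 and Orc1), and without cKO E13 monosome c1 there were 2 (Lig1 and Mcm4). No other left-out library gave a call.

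**Figure D5:**
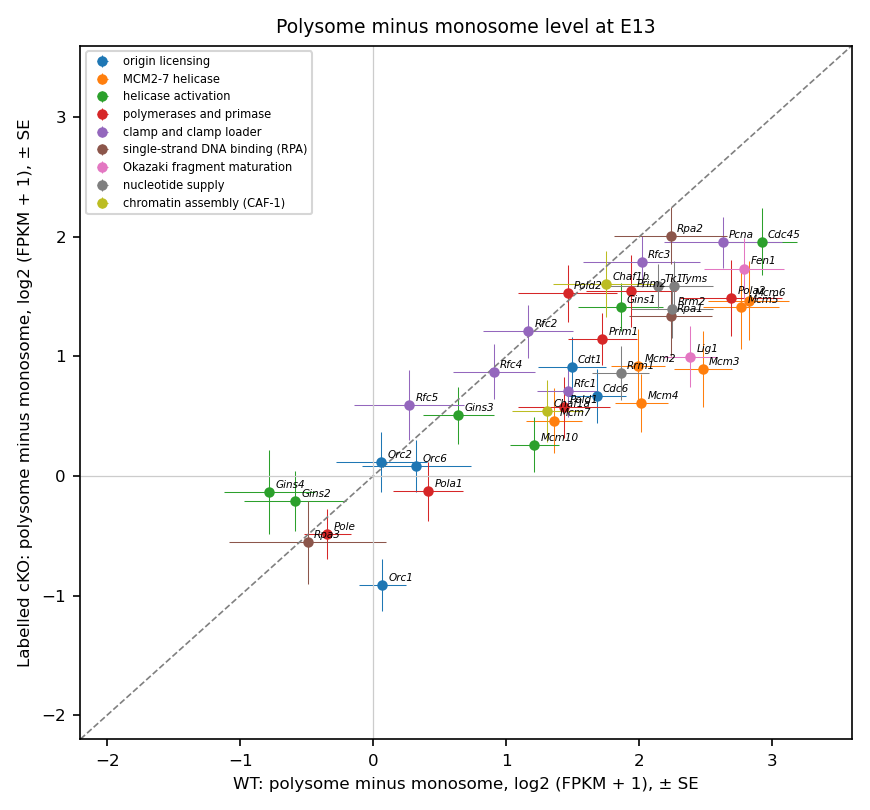
Polysome minus monosome difference at E13 in log2(FPKM + 1) of the 41 replication genes in the libraries labelled cKO (vertical axis) against WT (horizontal axis), with bars of 1 SE, coloured by role, and the line of equal values dashed. The helicase subunits lie below the line at WT values of 1.36 to 2.82, and Gins2, Gins4, Pole and Rpa3 lie below 0 on both axes.

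At P0 the libraries labelled cKO had 24 of 41 members higher in polysome RNA (25% of all genes) and 2 lower (23.8%), with a median of 0.94 beside -0.001 over all genes. The lower pair was Orc6 (-0.69 ± 0.25) and Rfc4 (-0.88 ± 0.26). Orc6 measured 51.8 and 44.9 FPKM in monosome and 26.8, 30.8 and 30.9 FPKM in polysome RNA, and Rfc4 35.1 and 29.2 FPKM and 14.9, 18.6 and 17.6 FPKM, neither with overlap. Rfc4 was the 1 member whose excess differed between ages in these libraries (-1.75 ± 0.35, adjusted p = 0.00679, 5.31% of all genes lower). At E13 it had measured 63.7, 51.5 and 55.2 FPKM in monosome and 95.2, 113 and 106 FPKM in polysome RNA. In WT its difference between ages was -1.15 ± 0.40 and not called. Exons of Rfc4 (chr16:23113943-23127737, GRCm38) overlap those of Eif4a2 on the opposite strand, and Eif4a2 averaged 82.7 FPKM in monosome RNA at E13 and 581 FPKM at P0, beside 49.5 and 226 FPKM in polysome RNA. Orc6 (chr8:85299632-85308278) shares exon bases with Vps35, also on the opposite strand. Vps35 averaged 18.4 FPKM in monosome RNA at E13 and 48.2 FPKM at P0, beside 27.6 and 65.1 FPKM in polysome RNA, so it was higher in polysome RNA. Whether fragments of these neighbours entered the values was not tested.

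Without cKO P0 monosome c0 the Rfc4 difference between ages lost its call (adjusted p = 0.0584), while without cKO E13 monosome c0 or E13 polysome c0 there were 2 such members in place of 1. Without P0 monosome c0 calls were also lost for the polysome minus monosome differences at P0 of Orc6 (0.170), Rfc4 (0.0942), Mcm2 (0.0873), Pold1 (0.0741), Rfc5 (0.0532) and Chaf1a (0.117). Without monosome c1 the losses were Orc6, Mcm2, Mcm4, Rfc5, Rpa1, Tyms and Chaf1b (0.0503 to 0.284). Orc6 also lost its call without polysome c0 (0.0813), Chaf1a without polysome c2 (0.0514), and Rfc5 without any of the 3 polysome libraries (0.0507 to 0.106). The P0 monosome group has 2 libraries, so the fits without either of them have 1 left, which is assumed to vary like the other groups. Between the genotypes none of the 41 members was called at P0 (limma, 0% of 12233 genes tested), none had an unadjusted p under 0.05, against 308 of all genes, and the median was -0.17, or 0.03 after rescaling.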

How the data were processed

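Poly(A) RNA of neocortex was sequenced from total lysate, monosome and polysome pools in 31 libraries (15 WT, 16 labelled cKO) of 12 groups. The authors deposited FPKM values, made with TopHat2 2.0.6, Bowtie2 2.0.5.0 and Cuffdiff on mm10, per the submitters' processing notes, in 1 table per genotype. For the gene annotation, the counting strand and the depth, the sources used here give nothing. Of 23284 names per table, 26 that spreadsheet software had turned into dates or numbers were left out. In the cKO table the columns give the group but not which sample, so they are called c0, c1 and c2. Low values gave what 1 fragment was worth relative to the other libraries (0.465 to 1.526), but in 1 library no pair of values agreed within 0.02 on the natural log scale, so depth is treated as unknown.

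Genes with a mean of at least 1 FPKM were tested on log2(FPKM + 1), with a mean-variance trend, in limma 3.58.1 (R 4.3.3), over all 6 groups of a table, with p-values adjusted over all genes (Benjamini-Hochberg). Fold changes on this scale understate the change of low genes. Differences between genotypes came from 1 fit of all 12 groups, on effects within each table. There were 15 comparisons, and the fit was tested on simulated data. Alternatives were a pseudocount of 0.1, no filter (above 0 in at least 2 libraries), median ratio rescaling, only the groups compared, the replicate number as a block and each library left out. In groups of 2 libraries, leaving 1 out leaves 1, so calls gained or lost there borrow their spread from the other groups. Library values are given for the highest member of each role and for members uncalled in an age comparison or called against the majority. Others were added where a result turned on them, after their values were seen. From other lists up to 4 genes were named by adjusted p in WT total RNA. Members and lists were chosen with earlier results of these data known. Of the other lists, 91 of 92 genes were matched, and 66 of 67 markers. Gene positions and overlaps came from GENCODE M21 and promoters from RefSeq (GRCm38.p6). Same-numbered WT libraries of P0 deviated together (9 correlations of 0.207 to 0.734). At E13 those of monosome and polysome RNA did so too (0.411), while total RNA went against monosome (-0.5125) and polysome RNA (-0.538). The titles do not say what a number shares.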

Additional observations from a re-analysis of the deposited data

Results flagged for a closer look

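In 8 cases the polysome minus monosome difference of a replication gene itself differed between E13 and P0 by an interaction test in limma. In WT it was lower at P0 for Cdc6 (-1.45), Tyms (-1.39), Cdc45 (-1.35), Mcm7 (-1.28), Cdt1 (-1.22) and Mcm10 (-0.89), and higher for Gins4 (1.82), all in log2(FPKM + 1). In the libraries labelled cKO it was lower for Rfc4 (-1.75). With a pseudocount of 0.1 in place of 1, only Mcm7, Gins4 and Rfc4 of these stayed called. At P0 in WT, Cdc6 and Mcm10 lay under 1 FPKM in both pools, where the added 1 shrinks differences. Whether these changes between E13 and P0 differ between the genotypes was not tested.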

How the results depend on the processing

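No member called in a comparison changed sign in it under any alternative run. Uncalled members did in 257 values, up to 18 of 41 in 1 alternative (the genotype difference at P0 after median ratio rescaling, whose median turned from -0.17 to 0.03). The median of the genotype difference in total RNA turned from 0.22 to -0.0049 without WT E13 total 1, and that of the difference between ages in the libraries labelled cKO from 0.04 to -0.05 without cKO E13 polysome c0 and to -0.0008 without cKO P0 polysome c2. The counts of members called in either direction in the 6 age and the 4 polysome against monosome comparisons stayed within 1.5 times. Those called lower in polysome RNA went from 0 to 2 in WT at E13 (after rescaling, or without monosome 1), from 1 to 2 in the libraries labelled cKO at E13 (without monosome c0, polysome c0 or polysome c2), and at P0 from 2 to 0 (without monosome c0), to 1 (without monosome c1 or polysome c0) or to 4 (only the groups compared). The 7 members of WT whose polysome excess differed between ages became 2 with a pseudocount of 0.1, 3 without the filter and 3 after rescaling, and 0 to 12 with 1 library left out. The count of 1 in the libraries labelled cKO ranged from 0 to 2, and the count of 0 for the genotype difference at E13 from 0 to 9. The cause was not tested.

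With the replicate number as a block, the calls of Orc6 in WT total RNA (adjusted p = 0.0519) and of Gins4 between ages (0.0512) were lost, and 30 members in place of 29, with Mcm10 added (0.0493), were called for polysome against monosome RNA at P0. It ended no other call. In the age comparisons the block joined E13 and P0 libraries of the same number, which no label ties together. In the others it was the number within each age. In the libraries labelled cKO no paired analysis was possible because the column numbers start at 0 where the sample titles start at 1, which ties no column to a numbered sample. With only the groups compared in the fit, the calls of Rfc2 and Rfc4 at E13 in WT (0.0880 and 0.165) were lost, as were, in the libraries labelled cKO, those of Rfc1 in total RNA (0.0897) and of Cdc6, Mcm2, Mcm3 and Mcm4 at E13 (0.0655 to 0.0852). Gins4 in WT polysome RNA was then called lower with age, and at P0 in the libraries labelled cKO Gins2 and Pola1 were called lower and Prim1, Prim2, Gins3, Gins4, Rfc1 and Cdt1 higher. In the P0 fits of this kind 37 members passed the filter, without Orc1, Cdc6, Pole and Mcm10. Without the filter, the calls of Orc6 in WT total RNA, of Pold1 and Rfc5 in WT at P0, of Mcm2, Mcm3 and Mcm4 at E13 and of Rfc5 at P0 in the libraries labelled cKO were lost. Depth in fragments is unknown, so values under 1 FPKM, such as those of Orc1 and Cdc6 at P0, have no counting error to set beside them.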
